A study of Mus musculus with 19 samples.

Results

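Gene expression in mice that carried the DN transgene was compared with that in control mice within experiment 1 of the series, in which every animal had been through SOR. The labels place 11 of the 19 libraries of the series in this comparison: 5 with the genotype tTA+/DN+ and 6 with tTA+/DN-. Each library was total RNA, depleted of ribosomal RNA, from dorsal hippocampus; the mice were male C57BL/6J of 2 to 4 months. The labels do not say whether a library is 1 mouse or a pool, so libraries are the unit counted here. Both groups carried tTA, the tetracycline transactivator that switches on transgenes under a tet promoter, and both were exposed to SOR, so DN was the only labelled difference. The labels call the line Nr4ADN and the controls littermates. They write SOR without spelling it out, and name neither the promoter behind tTA nor the time after SOR. In published work with Nr4ADN mice tTA is driven from the CaMKII alpha promoter, which is active in forebrain excitatory neurons, and SOR is the usual short form of spatial object recognition, a task in which mice notice that a familiar object has been moved. Where only some cells of the tissue express a transgene, a bulk library averages them with cells that do not, and fewer cells of a type cannot be told apart from less RNA per cell.

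Nr4a1, Nr4a2 and Nr4a3 encode the Nr4A family of orphan nuclear receptors. They are immediate early genes of neurons: learning switches them on within minutes to hours, and their proteins bind DNA as monomers at a sequence called NBRE, or as dimers, some of them with the retinoid X receptors. A dominant-negative form keeps DNA binding or dimerization and lacks the activating part, so that it occupies the places of all family members. ER chaperones, which the title of the series names, fold secreted and membrane proteins in the endoplasmic reticulum (ER). BiP, the product of Hspa5, is their hub, and the unfolded protein response (UPR) with its sensors Ire1, Perk and Atf6 sets their level, in part through the transcription factor Xbp1 and the ER stress element (ERSE) in promoters.

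Total counts per library ran from 30882654 to 43751761 with DN and from 30855629 to 47992063 without it. Sampling noise was exceeded between all libraries of the same group (chi-square per degree of freedom between library pairs from 4.63 to 26.2), so none was taken for a repeat of another. All 10 defining markers of dentate granule cells, all 6 of CA1, all 5 of CA2 and all 6 of CA3 were detected in every library. In this series 3 of the 11 libraries stood apart by the choroid plexus, the tissue of the brain ventricles that makes cerebrospinal fluid and lies against the hippocampus. Ttr, its transthyretin gene, was at 3843 CPM in control replicate 1, 1251 CPM in control replicate 2 and 1511 CPM in DN replicate 2, and at 4.22 to 142 CPM in the other 8 libraries (CPM, counts scaled by TMM to a common library size). The summed level of the 10 choroid plexus markers was 1381 to 4214 CPM in those 3 libraries and 24.7 to 179 CPM in the other 8, and none of the 10 was at 0 in any library. DN replicate 1 was the highest of the other 8, in Ttr as in the sum. The first principal component of the 11 libraries, with 31.1% of the variance, was led by Ttr, Tmem72, Kcne2 and Slc4a5. Values without these 3 libraries are given for the main gene lists and for many of the genes named.

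Few genes were called different between DN and control libraries. Of 22391 genes tested with edgeR's quasi-likelihood test, 2 passed a Benjamini-Hochberg adjusted p under 0.05, which is 0.00893% of genes. Both lie on chromosome 4: Ptprf rose and St3gal3 fell with DN. The next smallest adjusted p was 0.999. Below an unadjusted p of 0.05 lay 452 higher genes (2.02% of those tested) and 406 lower ones (1.81%); with upper quartile scaling the split was 610 to 246. Among the 17091 genes with a mean of at least 1 CPM, 93.1% differed by less than 0.2 on the log2 scale, and 47 by more than 0.5, 11 of them higher and 36 lower. Fold changes below are log2 values of DN over control, with the standard error (SE) of the fit.

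Ptprf encodes LAR, a receptor tyrosine phosphatase at synapses and growth cones (ENSMUSG00000033295.14, chromosome 4, 118208213 to 118291405, minus strand, GRCm38). The 5 DN replicates, in order, gave 67.4, 86.9, 83.3, 85.5 and 86.2 CPM, against 28.6, 28.3, 29.2, 28.0, 29.8 and 28.7 CPM in control replicates 1 to 6. Even the lowest DN library, replicate 1, lay far above every control library. The fold change was 1.51 (SE 0.0541, edgeR adjusted p = 3.67e-13). St3gal3 encodes a Golgi enzyme that adds sialic acid to glycans (ENSMUSG00000028538.12, chromosome 4, 117932154 to 118134914, minus strand). It was at 23.3, 23.6, 23.0, 24.3 and 19.4 CPM in the DN replicates and at 37.9, 36.5, 35.5, 37.1, 38.5 and 34.6 CPM in the controls, again without overlap, a fold change of -0.69 (SE 0.0538, edgeR adjusted p = 2.41e-07). Experiment 2 compared 4 SOR with 4 homecage control libraries, all DN-, and no library is shared with experiment 1. Its groups mix tTA genotypes: 1 tTA- and 3 tTA+ libraries are SOR, and 2 tTA- and 2 tTA+ libraries are homecage, so that SOR and tTA are partly confounded in its values. There, SOR against homecage gave -0.11 for Ptprf and 0.23 for St3gal3.

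Genes around this pair were then read off the same fit. Of the other 45 genes tested within 1 Mb, 5 were higher with DN at an unadjusted p under 0.05 and 0 lower (2.02% and 1.81% over all genes), and none of the 5 was called. Kdm4a, a histone demethylase gene that lies between the pair (118136957 to 118180043), was at a mean of 66.6 CPM with DN and 61.8 CPM in controls, a fold change of 0.11 (SE 0.0407). Ipo13, an importin gene beyond St3gal3 (117894486 to 117914999), had 67.7, 73.3, 70.5, 71.0 and 71.9 CPM among the DN replicates and 56.2, 64.7, 64.3, 62.6, 63.0 and 65.2 CPM among controls. Its groups did not overlap, and its fold change was 0.18 (SE 0.0398, unadjusted p 2.29e-04, adjusted p = 0.999). Slc6a9, for the glycine transporter GlyT1, had a fold change of 0.27 (SE 0.0895), Tie1, an endothelial receptor gene, 0.17 (SE 0.0729), and B4galt2, a galactosyltransferase gene, 0.12 (SE 0.0494). Artn, which lies between Ipo13 and St3gal3, was at a mean of 0.393 CPM with DN and 0.406 CPM in controls. The insertion site of the DN transgene was not analysed here.

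**Figure D1:**
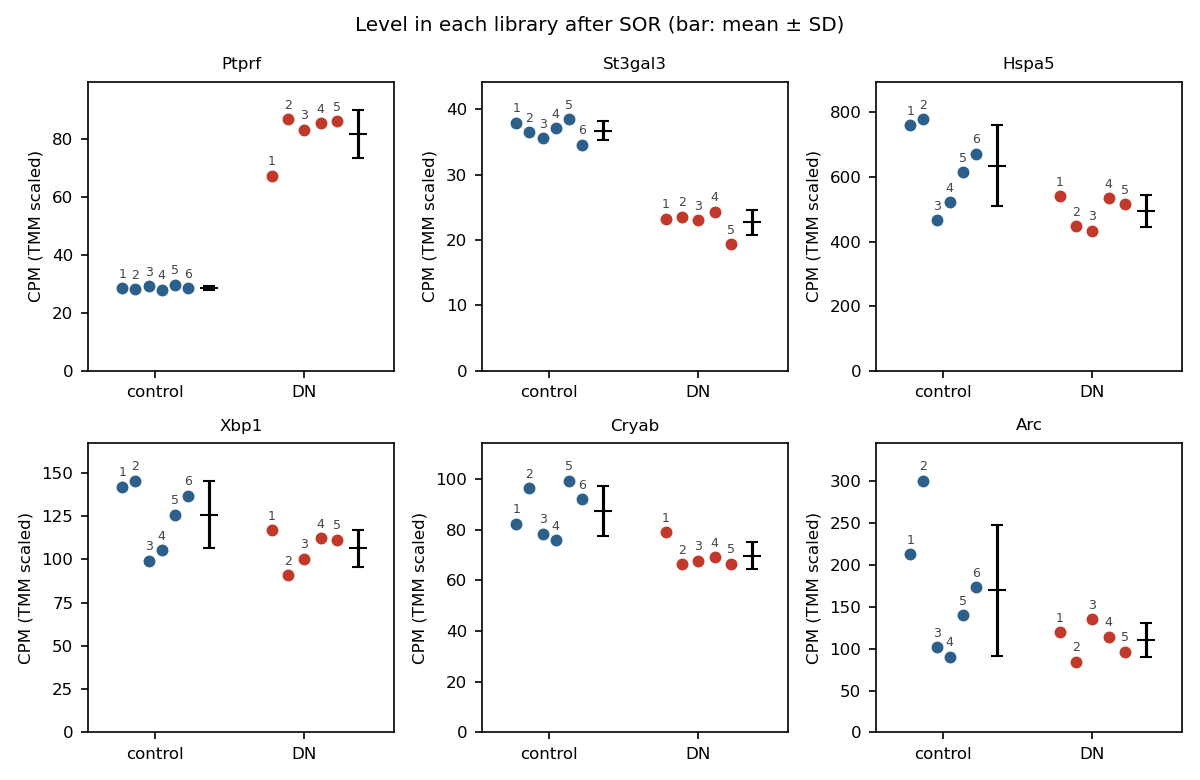
Level of 6 genes in each library, in TMM-scaled CPM on axes that start at 0; points are libraries, numbers are replicates and the bar is the mean ± SD of each group (6 control, 5 DN). Ptprf and St3gal3 separate the groups, while Hspa5, Xbp1, Cryab and Arc overlap, with control replicates 3 and 4 among or next to the DN libraries.

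The Nr4a genes came first among the lists, since the DN line is named for them; the table holds no separate row for the transgene. Whether reads from it were counted into an Nr4a gene is not given in the sources used here, so the values below need not be those of the native genes alone. Nr4a1 was at 28.4 to 39.2 CPM in the DN libraries and at 20.2 to 52.5 CPM in the controls, so the DN libraries lay inside the control range. Nr4a2 had a fold change of -0.26 (SE 0.136) and Nr4a3 of -0.20 (SE 0.119). The fold change of Nr4a1, -0.11 (SE 0.242), turned to 0.22 without the 3 choroid-rich libraries. Among their partners, Rxra was at 0.06 and Rxrb at 0.02 on the log2 scale. Rxrg, the third retinoid X receptor, was at 1.57, 1.14, 1.32, 2.41 and 1.30 CPM in the DN replicates and at 0.790 to 1.62 CPM in the controls, with a fold change of 0.45 (SE 0.211, unadjusted p 0.0463). Of these 6 genes 0 were called.

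Promoters of ER genes are shown here, because several genes with the ERSE were among the lower ones. The ERSE is CCAAT, 9 bases of any kind, then CCACG. An exact match on either strand was found, within 250 bases before to 50 after the start, in 34 of 27025 promoters of the RefSeq table (0.126%) and in 19 of the 13089 that belong to genes tested here. The table held 10 of the 12 members of the list of BiP and its cochaperones, and 3 of these 10 had a match. The following are the 250 bases before the start, from RefSeq on GRCm38.p6, 5′ to 3′ on the strand of the gene, with each ERSE in capitals. They lie at chr2:34771840-34772089 on the plus strand (Hspa5), chr10:86705445-86705694 on the minus strand (Hsp90b1), chr14:118937682-118937931 on the plus strand (Dnajc3), chr12:17266339-17266588 on the plus strand (Pdia6) and chr15:88819396-88819645 on the plus strand (Creld2).
Hspa5: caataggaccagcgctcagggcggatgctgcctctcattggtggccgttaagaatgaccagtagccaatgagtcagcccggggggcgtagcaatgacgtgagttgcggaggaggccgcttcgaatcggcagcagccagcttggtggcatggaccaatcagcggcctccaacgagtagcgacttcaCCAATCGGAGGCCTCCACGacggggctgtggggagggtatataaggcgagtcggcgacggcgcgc
Hsp90b1: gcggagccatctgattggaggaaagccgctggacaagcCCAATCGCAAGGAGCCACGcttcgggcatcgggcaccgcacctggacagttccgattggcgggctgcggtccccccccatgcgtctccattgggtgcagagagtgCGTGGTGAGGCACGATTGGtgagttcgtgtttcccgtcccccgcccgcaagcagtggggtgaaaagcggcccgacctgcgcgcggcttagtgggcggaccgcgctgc
Dnajc3: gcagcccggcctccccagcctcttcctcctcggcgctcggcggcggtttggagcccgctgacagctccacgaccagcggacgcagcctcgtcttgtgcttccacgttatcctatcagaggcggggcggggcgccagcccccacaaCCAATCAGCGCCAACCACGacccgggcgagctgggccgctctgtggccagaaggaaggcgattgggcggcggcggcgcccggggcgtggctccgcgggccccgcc
Pdia6: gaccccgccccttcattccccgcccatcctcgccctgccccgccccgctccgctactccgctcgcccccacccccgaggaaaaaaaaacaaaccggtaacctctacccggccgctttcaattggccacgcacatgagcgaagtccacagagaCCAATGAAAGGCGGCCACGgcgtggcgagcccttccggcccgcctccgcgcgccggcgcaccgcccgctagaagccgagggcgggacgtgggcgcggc
Creld2: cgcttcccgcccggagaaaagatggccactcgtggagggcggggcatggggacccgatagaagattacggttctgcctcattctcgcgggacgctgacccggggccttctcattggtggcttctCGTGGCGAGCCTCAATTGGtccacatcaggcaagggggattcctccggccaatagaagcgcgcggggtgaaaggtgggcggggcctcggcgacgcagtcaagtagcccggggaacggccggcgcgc

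The promoters of Hspa5, Dnajc3 and Pdia6 have the element in the direction of the gene and that of Creld2 in the reverse, while Hsp90b1 has 1 of each. Calr, Canx, Syvn1 and Derl3 also held it, and among the ER genes printed or named here Sdf2l1, Pdia4, Dnajb11, Xbp1, Herpud1 and Dnajb9 had no match to these letters. Dnajb11 and Herpud1 did hold another form, ERSE-II (ATTGG, any base, then CCACG), which was in 0.037% of all promoters. Of the 19 tested genes with an ERSE, 14 were lower with DN (49.98% of all genes were), 5 of them at an unadjusted p under 0.05 (1.81% of all genes): Pdia6, Hsp90b1, Hspa5, Dnajc3 and Calr. Without the 3 choroid-rich libraries 0 of these 5 were at such a p. The 9 in the lists above or below all lay lower; of the other 10, 5 were lower, with a median fold change of -0.01. The NBRE, AAAGGTCA on either strand, was in 1.44% of all promoters, in 0.986% of those of genes tested and in 0 of those of the lists of BiP, disulfide isomerases, calnexin cycle, UPR regulators, ER-associated degradation and secreted factors. A match to letters is a description of the sequence and not of a bound site.

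BiP and the proteins that work with it were lower with DN in 11 of 12 genes, with a median fold change of -0.15 against 0.00 over all genes. At an unadjusted p under 0.05 there were 6 lower and 0 higher, where 1.81% of all genes were lower, and 0 were called by edgeR. For Hspa5, DN replicates 1 to 5 gave 541, 448, 434, 535 and 517 CPM, and control replicates 1 to 6 gave 760, 779, 466, 522, 616 and 672 CPM. The 4 controls other than replicates 3 and 4 lay above every DN library. Its fold change was -0.36 (SE 0.145, edgeR adjusted p = 0.999), and Xbp1 went with it library by library. Sdf2l1, which keeps BiP clients from aggregating, was at 11.5 to 13.2 CPM with DN, while the controls gave 21.6, 22.03, 11.2, 13.1, 19.4 and 15.7 CPM, a fold change of -0.47 (SE 0.177). The same 2 controls, replicates 3 and 4, overlapped the DN libraries.

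Other members differed by less. Hsp90b1, the ER form of Hsp90, was at 383, 350, 354, 351 and 351 CPM with DN and at 448, 453, 343, 361, 394 and 421 CPM in the controls (fold change -0.17, SE 0.0662). Dnajc3, a cochaperone that also restrains Perk, had a fold change of -0.23 (SE 0.0935), and Hyou1, the nucleotide exchange factor of BiP, -0.15 (SE 0.0529). Dnajb9, a cochaperone that turns off Ire1, was at 34.0, 27.8, 30.5, 29.2 and 31.7 CPM with DN and at 30.4 to 38.2 CPM in controls (fold change -0.16, SE 0.0579). Members of the list that differed least were Dnajc10, a reductase (0.02, SE 0.0300), Sdf2 (-0.03, SE 0.0544) and Sec63 (-0.05, SE 0.0342). In the mixed tTA groups of experiment 2, SOR against homecage gave 0.87 for Hspa5, 1.05 for Sdf2l1, 0.46 for Dnajc3 and -0.07 for Dnajb9. Choroid plexus markers differed between those groups too, with a median of 1.93 (0 of 10 called) and Ttr at 3.63 (SE 1.64). The part of choroid plexus RNA in the experiment 2 values was not tested.

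The protein disulfide isomerases, which form and shuffle disulfide bonds, were lower in 12 of 16 genes with a median of -0.06; 4 were lower at an unadjusted p under 0.05, where 1.81% of all genes were, and 0 were called. Pdia4 was at 102, 90.1, 89.2, 105 and 99.0 CPM with DN and at 136, 142, 96.7, 102, 122 and 122 CPM in the controls, and Pdia6 had a fold change of -0.31 (SE 0.110) against -0.31 (SE 0.105) for Pdia4. Pdia3 was at -0.17 (SE 0.0671) and Erp44, a retention factor of the early secretory path, at -0.10 (SE 0.0437). The oxidase gene Ero1l was level between the groups, at a mean of 51.3 CPM in both. In the calnexin and calreticulin cycle, which folds glycoproteins, 5 of 10 genes were lower and 5 higher (median -0.01, which is 0.0059 with upper quartile scaling); Calr was at -0.17 (SE 0.0787), Mlec at -0.11 (SE 0.0463) and Uggt1, the folding sensor, at -0.07 (SE 0.0341). The 4 secreted ER stress factors split as Manf, -0.38 (SE 0.150), Creld2, -0.36 (SE 0.169), Creld1, -0.09 (SE 0.0459), and Cdnf, 0.21 (SE 0.169). Without the 3 choroid-rich libraries Manf was at -0.17 (unadjusted p 0.197) and Creld2 at -0.13 (unadjusted p 0.349), and the median of the 4 went from -0.22 to -0.10.

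Regulators of the UPR were lower in 12 of 15 genes, with a median of -0.06, and 2 at an unadjusted p under 0.05 (49.98% and 1.81% of all genes). Xbp1 was at 117, 90.7, 100, 112 and 111 CPM with DN and at 142, 145, 99.4, 105, 126 and 137 CPM in the controls (fold change -0.24, SE 0.118). The groups overlapped through control replicates 3 and 4, as for Hspa5. Herpud1, which links the UPR to degradation, was at 51.5 to 56.2 CPM with DN, while the controls gave 69.8, 74.2, 55.4, 53.5, 63.8 and 63.5 CPM (fold change -0.22, SE 0.0746), and Creb3l2, an ER-anchored transcription factor, had a fold change of -0.22 (SE 0.0775). The sensors themselves differed little: 0.04 (SE 0.0651) for Ern1, -0.06 (SE 0.0462) for Eif2ak3 and 0.01 (SE 0.0487) for Atf6. ER-associated degradation had 13 of 17 genes lower with a median of -0.03, and 1, Sel1l, at an unadjusted p under 0.05 (-0.08, SE 0.0365), which became 0 with upper quartile scaling. Translocation and export, the list of channel, signal peptidase and coat genes, had 21 of 29 lower with a median of -0.01, and 1, Spcs2, at an unadjusted p under 0.05 (-0.10, SE 0.0385); with upper quartile scaling 14 of the 29 were lower and the median was 0.0026. Of all genes, 1.81% were lower at such a p. Targets of Atf4, the Perk arm, had 9 of 14 lower with a median of -0.03; 0 were at an unadjusted p under 0.05, with Trib3 at -0.54 (SE 0.309) from under 1 CPM, and Asns and Slc3a2 at 0.00 in fold change. Over these 8 ER lists 0 genes were called.

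**Figure D2:**
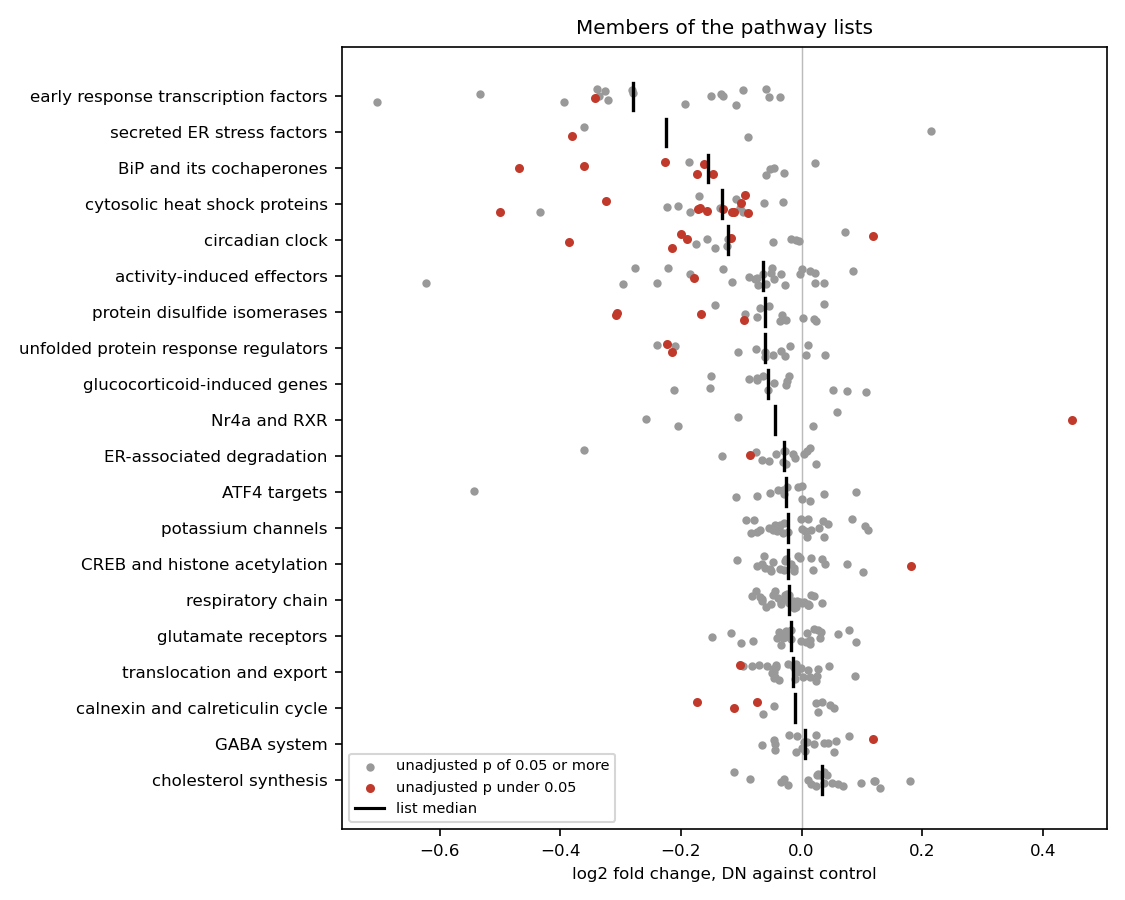
Log2 fold change (DN against control) of each member of the 20 pathway lists, 1 row per list, ordered by median; black lines are medians, red points have an unadjusted p under 0.05 and grey points do not. Medians run from -0.28 for early response transcription factors to 0.03 for cholesterol synthesis, and most lists centre near 0.

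The 22 genes of the cytosolic heat shock list encode chaperones outside the ER. All 22 lay lower with DN, with a median of -0.13; 11 were at an unadjusted p under 0.05, where 1.81% of all genes were (6 with upper quartile scaling), and 0 were called. Cryab, a small heat shock protein of glia and muscle, was at 79.0, 66.2, 67.7, 69.1 and 66.6 CPM with DN and at 82.2, 96.3, 78.4, 75.7, 99.2 and 91.9 CPM in the controls (fold change -0.32, SE 0.0763, unadjusted p 0.00108, edgeR adjusted p = 0.999). Its groups overlapped through DN replicate 1 alone. Fkbp4, a cochaperone of steroid receptors, had a fold change of -0.16 (SE 0.0484), Stip1, which hands clients from Hsp70 to Hsp90, -0.17 (SE 0.0575), and Dnajb5 -0.17 (SE 0.0551). Abundant members differed by less: Hspa8, the constitutive Hsp70, was at -0.10 (SE 0.0488), Hsp90ab1 at -0.09 (SE 0.0417) and Hspa4 at -0.03 (SE 0.0383). Hspb1 was at -0.50 (SE 0.209) from a low level of 4.83 CPM with DN and 6.87 CPM in controls. Hspa1b was at -0.43 (SE 0.266) and Hspa1a at -0.22 (SE 0.194); these near-identical copies share reads, so their split is uncertain, and without the 3 choroid-rich libraries they were at -0.23 and -0.003.

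All 19 early response transcription factors tested were lower with DN in the fit of all 11 libraries, and the median of -0.28 was the lowest of the pathway lists. Of these, 1, Egr4, was lower at an unadjusted p under 0.05 (fold change -0.34, SE 0.149), where 1.81% of all genes were, and 0 were called. Fos read 8.63, 5.97, 15.0, 11.4 and 7.03 CPM among the DN replicates, with 17.8, 23.4, 7.70, 6.07, 13.5 and 15.4 CPM among controls. The groups overlapped widely (fold change -0.53, SE 0.388), with an SD of log2 CPM of 0.530 among DN libraries and 0.738 among controls. Egr1 was at 31.6 to 41.3 CPM with DN and at 26.6 to 55.1 CPM in the controls (fold change -0.32, SE 0.194). Npas4, a neuron-specific factor of inhibitory synapse formation, was at 3.86 to 8.62 CPM with DN and at 3.52 to 12.4 CPM in controls, a fold change of -0.13 (SE 0.352) that became 0.43 without the 3 choroid-rich libraries. Jund, the other member of the list, was not tested.

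Effector genes that activity induces, from synaptic proteins to phosphatases, were lower in 21 of 27 with a median of -0.06. Arc, which remodels AMPA receptors at synapses, was at 120, 84.7, 135, 114 and 96.2 CPM with DN and at 213, 300, 102, 90.3, 140 and 173 CPM in the controls. Controls 3 and 4 lay among the DN libraries and the other 4 above all of them, and the fold change was -0.62 (SE 0.317, edgeR adjusted p = 0.999). Without the 3 choroid-rich libraries it was -0.12 (unadjusted p 0.637). Homer1, a scaffold of metabotropic glutamate receptors, was at -0.24 (SE 0.123), Dusp5 at -0.30 (SE 0.147) and Dusp4 at -0.18 (SE 0.0776, unadjusted p 0.0371). Bdnf was at -0.07 (SE 0.0536), Nptx2 at 0.04 (SE 0.0719) and Rgs2 at 0.00 (SE 0.0493), so members of the list did not go the same way. The CRE, TGACGTCA, was in 5 of the 19 promoters of this list that the table held, against 1.86% of all promoters and 2.95% of those of genes tested.

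How far these lists rest on single libraries was then measured. Without the 3 choroid-rich libraries (4 DN against 4 control left), the median of BiP and its cochaperones was -0.07 with 0 genes below an unadjusted p of 0.05, that of the disulfide isomerases -0.035 with 0, that of heat shock proteins -0.06 with 2, and that of early response transcription factors -0.14 with 14 of 19 lower. Of these early factors 1 was lower and 1 higher at such a p. Over all 22438 genes tested in this fit, 353 (1.57%) were lower and 436 higher at such a p. Hspa5 was then at -0.17 (unadjusted p 0.255), Fos at -0.01 and Cryab at -0.29 (unadjusted p 0.0108). Large shifts were also those of Egr2, from -0.70 to -0.14, Derl3, from -0.36 to -0.01, and Junb, from -0.33 to 0.01. Among the other genes named above, Sdf2l1 went from -0.47 to -0.23, Xbp1 from -0.24 to -0.08, Herpud1 from -0.22 to -0.10, Pdia4 from -0.31 to -0.16, Hspb1 from -0.50 to -0.22 and Dusp5 from -0.30 to -0.08. Hsp90b1 was then at -0.08, Dnajc3 at -0.10, Pdia6 at -0.18, Pdia3 at -0.07, Calr at -0.09, Stip1 at -0.09 and Egr4 at -0.22. Creb3l2 (-0.18, unadjusted p 0.0462) and Dnajb5 (-0.12, unadjusted p 0.0409) were still at an unadjusted p under 0.05, like Cryab. Without control replicate 2 alone, 4 heat shock genes and 0 early factors were at an unadjusted p under 0.05, and the early factor median was -0.17. This was not particular to that library. Early factors were also at 0 without DN replicate 2, DN replicate 4 or control replicate 6. Heat shock genes were at 5 without DN replicate 2 or control replicate 5. Leaving out single libraries moved the counts both ways: up to 15 heat shock genes without control replicate 3, 8 early factors without control replicate 4 and 6 disulfide isomerases without control replicate 3. They were smaller at 3 for BiP and its cochaperones without DN replicate 2 or 4, and at 1 for the disulfide isomerases without DN replicate 3. The share of all genes lower at such a p moved as well. It was 1.12%, 2.44% and 2.22% without control replicates 2, 3 and 4, and 1.87%, 1.75% and 1.85% without DN replicates 2, 3 and 4. Controls 1 and 2 had the highest scores for BiP and its cochaperones, 0.20 and 0.22, and were rich in choroid plexus RNA, while DN replicate 2, also rich, had a score of -0.11. The part of choroid plexus RNA in the ER result was not tested.

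**Figure D3:**
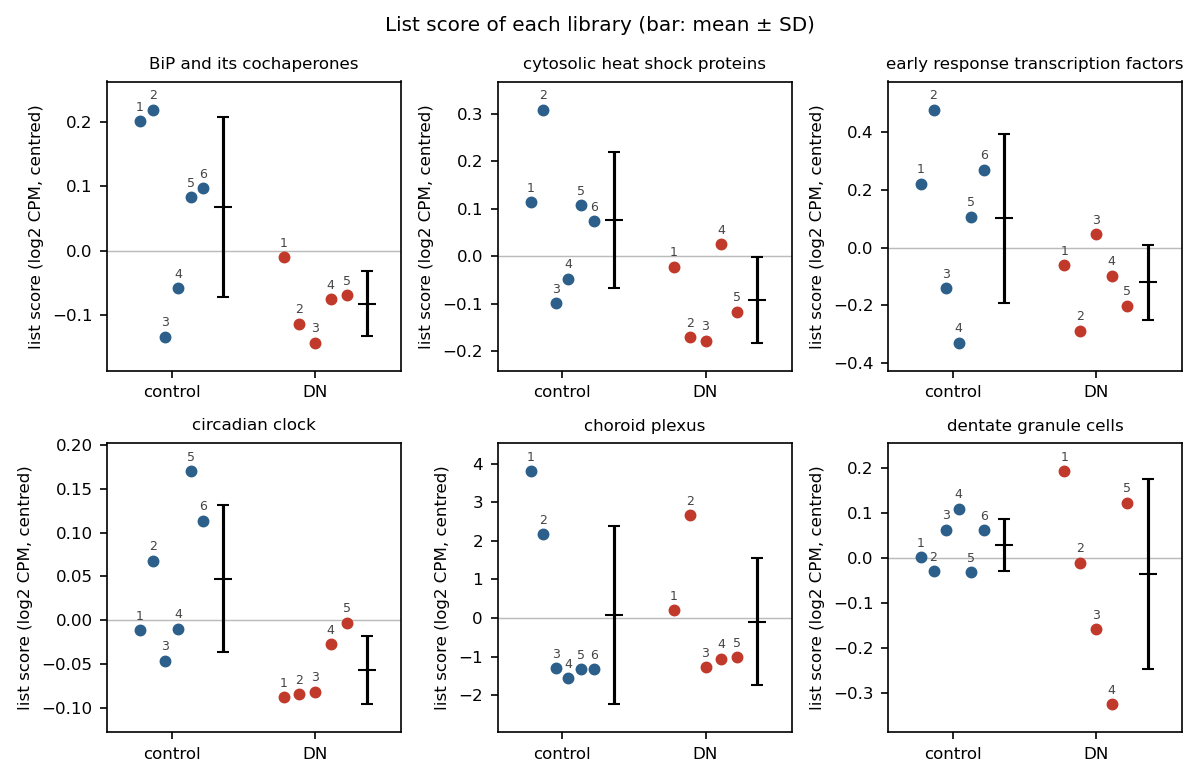
Score of 6 gene lists in each library, the mean over list members of log2 CPM centred on each gene's mean over the 11 libraries; points are libraries with replicate numbers, bars are mean ± SD. Control replicates 1 and 2 and DN replicate 2 lead the choroid plexus score, and control replicates 3 and 4 lie with the DN libraries in BiP, heat shock and early response scores.

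The circadian clock list had about the same median with and without the choroid-rich libraries, though not the same genes below the threshold. Of 16 clock genes 14 were lower with DN (12 with upper quartile scaling), with a median of -0.12 in all libraries and -0.12 without those 3, and 5 were lower at an unadjusted p under 0.05 in both fits, where 1.81% of all genes were; over all alternatives the count ran from 3 to 6. Nr1d2, Per1 and Tef were among the 5 in both, while Per2 (unadjusted p 0.123) and Per3 (0.133) dropped out without those libraries, and Hlf (0.0455) and Bhlhe41 (0.0132) came in. Nr1d2, the Rev-erb beta repressor, was at 100, 96.1, 103, 104 and 109 CPM with DN and at 103, 116, 104, 125, 132 and 125 CPM in the controls (fold change -0.20, SE 0.0618, unadjusted p 0.00595, edgeR adjusted p = 0.999). Its groups overlapped through control replicates 1 and 3. Per2 was at -0.38 (SE 0.132), Per1 at -0.21 (SE 0.0778), Per3 at -0.19 (SE 0.0825) and Tef, an output factor of the clock, at -0.12 (SE 0.0408). Arntl, the activator Bmal1 that runs opposite to the Per genes over the day, was higher, at 0.12 (SE 0.0505, unadjusted p 0.0289). Clock, Cry2 and Nr1d1 differed by 0.02 or less. Clock genes depend on the time of day at which tissue was taken, which the labels do not give, and DN and that time cannot be told apart here.

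Other pathways lay close to the median of all genes. Cholesterol synthesis was higher in 17 of 22 genes with a median of 0.03 (-0.01 without DN replicate 4), and 0 were at an unadjusted p under 0.05; Lss, which closes the sterol rings, was at 0.10 (SE 0.0586). Medians were -0.02 for 25 glutamate receptor genes, 0.01 for 19 genes of the GABA system, -0.02 for 27 potassium channels, -0.02 for 24 genes of CREB and histone acetylation and -0.02 for 31 of the respiratory chain. Each of these had at most 1 gene at an unadjusted p under 0.05 in all 11 libraries (3 potassium channels were lower without the choroid-rich ones): Gabrg1 at 0.12 (SE 0.0530) and Hdac7 at 0.18 (SE 0.0785), which was 0.07 (unadjusted p 0.375) without the choroid-rich libraries. The members with the smallest p in the glutamate receptor and potassium channel lists were Cacng2, which encodes stargazin (-0.12, SE 0.0617), and Kcnd3 (0.08, SE 0.0457). Glucocorticoid-induced genes were lower in 12 of 15 with a median of -0.06 and 0 at an unadjusted p under 0.05, Errfi1 having the smallest p (-0.15, SE 0.0791). Without the choroid-rich libraries Errfi1 was at -0.05 (unadjusted p 0.413), and 2 others were lower at an unadjusted p under 0.05, Arrdc2 at -0.36 and Zbtb16 at -0.14. Plin4 differed by -0.02 (SE 0.389), with a range of 4.75 to 27.3 CPM inside the DN group.

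Genes chosen for the separation of their groups come next; since non-overlap chose them, their gap is a description. The groups did not overlap in 67 genes (0.299% of those tested), 44 higher and 23 lower with DN. Besides Ptprf and Ipo13, the higher ones with the smallest p held Dnah3, an axonemal dynein (3.80 to 4.93 CPM against 2.26 to 3.79 CPM, fold change 0.48, SE 0.126), and Colgalt2, a collagen galactosyltransferase (10.7 to 11.5 against 7.49 to 10.4 CPM, 0.25, SE 0.0785). Supt3, a subunit of the SAGA complex, was at 0.25 (SE 0.0801), Zkscan16 at 0.14 (SE 0.0454), Tex9 at 0.32 (SE 0.105) and Fam204a at 0.16 (SE 0.0548). The other 4 were the noncoding 6030442K20Rik and the pseudogenes Gm1840, Gm15484 and Gm8399. On the lower side, besides St3gal3, which had the smallest p, Hexim1 was at 56.0 to 57.2 CPM with DN and 58.1 to 64.9 CPM in controls (-0.12, SE 0.0363). Its product holds the elongation factor P-TEFb inactive. Prkx was at -0.16 (SE 0.0496), Stc1, a secreted glycoprotein, at -0.39 (SE 0.140), Rap2a, a small GTPase, at -0.08 (SE 0.0298), and Tfeb, the regulator of lysosome genes, at -0.19 (SE 0.0786). Spef1, Dxo and Tex30 lay between -0.26 and -0.14, and Gm45819, Gm10501 and Gm7392 between -0.47 and -0.30. None of these except Ptprf and St3gal3 was called, and the others had an adjusted p of 0.999 by edgeR.

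Cell type markers were compared to see what else the tissue held. Choroid plexus markers were lower in 10 of 10 genes with a median of -0.88 and 0 at an unadjusted p under 0.05. The median turned to 0.43 without control replicate 1 and to 0.62 without the 3 rich libraries. In the latter fit 10 of 10 were higher, 4 of them (Ttr, Folr1, Aqp1 and Clic6) at an unadjusted p under 0.05, as were 436 of all 22438 genes. DN replicate 1 stayed in that fit, with 179 CPM of summed markers against 24.7 to 44.7 CPM in the other libraries left. Medians lay between -0.06 and 0.04 for the granule cell, CA1, CA2, CA3, interneuron, newborn neuron, astrocyte, oligodendrocyte, precursor, microglia, endothelial and thalamus lists in all 11 libraries. Without the 3 rich libraries the medians were -0.09 for granule cells and for CA2, -0.07 for oligodendrocytes (8 of 8 lower, 3 at an unadjusted p under 0.05, against 7 and 2 in all libraries) and 0.07 for endothelium (8 of 8 higher). Microglia markers were then at -0.06 (8 of 8 lower, against 5 of 8 in all libraries). Of all genes, 1.57% were lower at such a p without the 3 libraries and 1.81% in all 11. The markers with the smallest p were Mbp, for myelin basic protein, at -0.11 (SE 0.0424, unadjusted p 0.0140), Sox11 of newborn neurons at -0.15 (SE 0.0580, unadjusted p 0.0199) and Aqp4, the water channel of astrocytes, at -0.10 (SE 0.0403, unadjusted p 0.0279). In the other lists of these cells they were Dcn (0.47), Amigo2 (-0.06), Iyd (-0.21) and Tek (0.09), for CA1, CA2, CA3 and endothelium, each at an unadjusted p over 0.05. Dcn and Iyd went against most of their lists, as 5 of 6 CA1 markers were lower and 4 of 6 CA3 markers higher. Dcn is also in the list of meningeal markers. Blood markers were at a median of 0.20 (-0.15 without DN replicate 4; Alas2 at 0.21), with a summed level of 40.5 to 110 CPM in the DN libraries and 36.9 to 74.3 CPM in the controls, the highest in DN replicate 4. Meningeal markers were at 0.20 (Lum at 0.38) and those of ependyma at 0.13 (0.026 without DN replicate 2), with Rarres2 at 0.29 (SE 0.132, unadjusted p 0.0364). DN replicate 4 was also the lowest library in granule cell score (-0.33) and CA3 score (-0.24) and was at 0.12 in CA1 score. Lct, a granule cell gene, was at 136, 125, 101, 88.4 and 149 CPM in the DN replicates and at 123 to 145 CPM in the controls.

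Spread within the groups was set side by side. Over the 17091 genes with at least 1 CPM, the median SD of log2 CPM was 0.109 among DN libraries and 0.107 among controls, and the controls had the larger SD in 49.0% of genes. In lists the balance varied: the controls had the larger SD in 9 of 12 genes of BiP and its cochaperones, 13 of 16 disulfide isomerases, 19 of 22 heat shock genes and 16 of 19 early response factors. DN libraries had the larger one in 10 of 10 granule cell genes and 5 of 5 blood genes, and in 5 of 6 CA3 genes. For early response factors the median SD was 0.199 with DN and 0.307 in controls, and for granule cell genes 0.252 and 0.116. Of 10 single genes tested by an exact permutation of absolute deviations over all arrangements of the 11 libraries (two-sided), all 10 had the larger SD in controls, and 0 passed after adjustment over the 10. Deviations were taken from the group median. In the 5 DN libraries that median is itself a library without deviation, which leans the test toward a smaller DN spread. Several of the 10 genes also vary together, so they are not 10 separate observations. Nr4a3 had SDs of 0.125 and 0.247 (exact p = 0.0238, adjusted 0.173), Egr1 0.154 and 0.415 (exact p = 0.0346, adjusted 0.173), Arc 0.268 and 0.654 (exact p = 0.0909) and Hspa5 0.150 and 0.297 (exact p = 0.173).

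**Figure D4:**
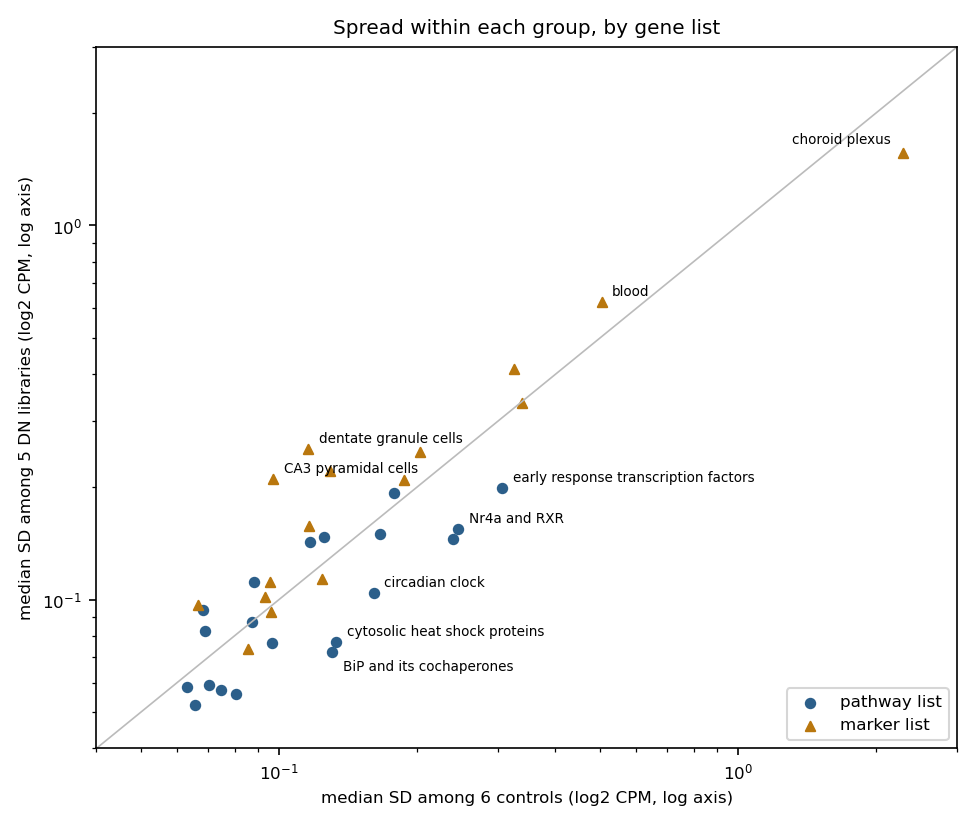
Median SD of log2 CPM of each gene list among the 6 controls (horizontal) and the 5 DN libraries (vertical), both log axes; circles are pathway lists, triangles are marker lists and the line marks equal spread. Early response factors, heat shock proteins and BiP with its cochaperones lie under the line, and granule cell, CA3 and blood markers above it.

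Genes that varied together from library to library were examined as 6 pairs, with p-values from 100000 permutations adjusted over the 6. Hspa5 and Xbp1 had Pearson's r = 0.971 over the 11 libraries (permutation adjusted p = 6.0e-05) and Spearman's rho = 0.964 (permutation adjusted p = 1.2e-04). Without control replicates 1 and 2, the libraries farthest from the median of Hspa5, r was 0.954 (adjusted permutation p = 6.6e-04). No correlation was computed within the DN libraries alone. Hspa5 and Arc had r = 0.857 and rho = 0.773 (permutation adjusted p = 0.00156 and 0.0152), and r = 0.638 without those 2 libraries (permutation adjusted p = 0.129). For Hspa5 and Fos r was 0.730 and rho 0.700 (permutation adjusted p = 0.0196 and 0.0310), falling to 0.450 without the 2 libraries (permutation adjusted p = 0.313). For Hspa5 and Nr4a1 r was 0.642 and rho 0.555 (permutation adjusted p = 0.0392 and 0.098), with 0.272 left. In these 3 pairs the relation was weaker, and past no adjusted threshold, in the 9 libraries left, which also span a narrower range of Hspa5. With each value taken as its deviation from the group mean, all 11 libraries gave r = 0.811 for Arc, 0.685 for Fos and 0.768 for Nr4a1 with Hspa5 (permutation adjusted p = 0.0046, 0.0255 and 0.00856).

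Arc and Nr4a1 had r = 0.872 and rho = 0.864 (permutation adjusted p = 0.00102 and 0.0036), and r = 0.749 without the same 2 libraries (permutation adjusted p = 0.0581). Hspa5 and Ttr had r = 0.394 and rho = 0.164 (permutation adjusted p = 0.233 and 0.634), and r = -0.419 without those 2; as deviations from group means r was 0.530 and rho 0.600 (permutation p = 0.0943 and 0.0564, unadjusted). Within the 6 controls r was 0.987 for Hspa5 with Xbp1, 0.939 with Arc, 0.934 with Fos, 0.934 with Nr4a1 and 0.738 with Ttr, and 0.986 for Arc with Nr4a1 (exact permutation adjusted p from 0.00417 to 0.0133, and 0.124 for Ttr). Among the controls Hspa5 and Xbp1 had the same order (rho of 1), with replicates 3 and 4 at the low end and replicates 1 and 2 at the high end.

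**Figure D5:**
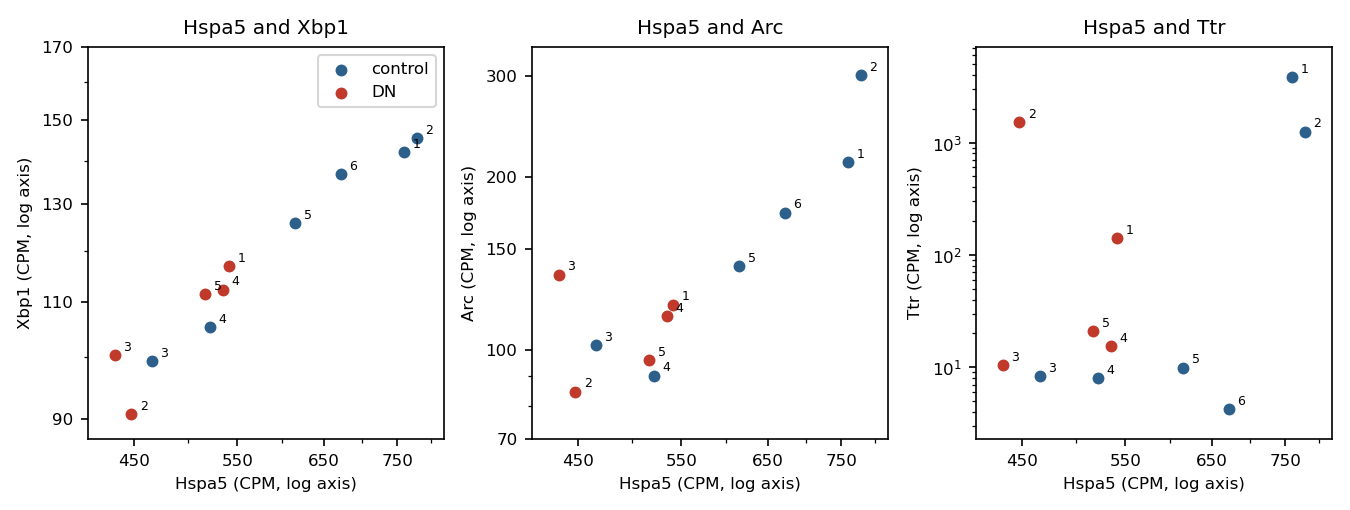
Level of Hspa5 (horizontal) against Xbp1, Arc and Ttr (vertical) in each of the 11 libraries, in CPM on log axes; blue points are controls, red points are DN libraries and numbers are replicates. Hspa5 and Xbp1 lie along 1 line in both groups, Arc follows less closely, and Ttr is high in 3 libraries at both ends of the Hspa5 range.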

How the data were processed

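Per the submitters' processing notes, reads were handled with STAR, SAMtools 1.6 and featureCounts 1.4.4 on mm10; parameters, annotation and strand setting are not given in the sources used here. The deposited table holds whole-number read counts per gene, not normalized, for all 19 libraries. The 11 libraries of experiment 1 were grouped by their labels. Gene symbols and positions were taken from the GENCODE annotation of GRCm38 (51596 of 51789 identifiers matched), and promoters from RefSeq (GRCm38.p6).

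Genes with low counts were removed with filterByExpr, libraries were scaled by TMM, and DN was compared with control by edgeR 4.0.16 (robust quasi-likelihood test, Benjamini-Hochberg adjusted p under 0.05) in R 4.3.3. CPM values are TMM scaled, and log2 CPM uses a prior count of 2. List scores are means of centred log2 CPM. The biological coefficient of variation was 0.0940. The fit was tested on simulated data for 22116 genes. It recovered 27 of 50 genes changed 1.25-fold, 35 of 50 at 1.5-fold, 50 of 50 at 2-fold and 49 of 50 at 3-fold. There were 11 false calls, and most list members described here differ by small folds, where recovery was incomplete. Alternatives used DESeq2 1.42.0, limma 3.58.1 (voom), other scaling, other filters, all 19 libraries, a replicate block and each library left out.

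Members and gene lists were chosen with earlier results of these data known. Genes named are Nr4a1 to Nr4a3, called genes, the 12 higher and 12 lower genes with the smallest p whose groups did not overlap at a mean of at least 1 CPM, the member of each list with the smallest p (1 is not reported here), 7 further genes (Hspa5, Xbp1, Arc, Fos, Egr1, Npas4, Ttr) and the 10 most variable genes; other list members and the neighbours of Ptprf were chosen as examples after their values were seen. Labels do not say whether each library is a separate animal, so p-values measure the spread between these samples.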

Additional observations from a re-analysis of the deposited data

Results flagged for a closer look

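Within each group of 5 or 6 libraries, the highest or lowest library was compared with the rest by Dixon's criterion at 95%. It stood apart in 38 of 230 groups examined, over 79 genes and 36 lists, where chance alone gives about 1 in 20 groups of unselected values. These genes were chosen in part for their spread or separation and many are choroid plexus genes of the same libraries, so the total is not to be read against that rate.

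Choroid plexus genes account for most of them. In DN replicate 2, Ttr was at 1511 CPM, Tmem72 at 18.9, Clic6 at 31.2, F5 at 23.5, Folr1 at 12.6, Col8a1 at 13.3, Prlr at 30.7, 1500015O10Rik at 18.9, Abca4 at 26.2, Col8a2 at 17.6 and Kcnj13 at 6.78 CPM. In control replicate 1, Ttr was at 3843 CPM, Tmem72 at 44.1, Clic6 at 59.3, F5 at 50.9, Folr1 at 32.0, Col8a1 at 28.8, Prlr at 78.1, Col8a2 at 31.0 and Kcnj13 at 18.4 CPM.

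Each of the called genes had 1 DN library apart from the others: Ptprf was at 67.4 CPM in DN replicate 1, the other DN libraries at 83.3 to 86.9, and St3gal3 at 19.4 CPM in DN replicate 5, the others at 23.0 to 24.3. Cryab was at 79.0 CPM in DN replicate 1, against 66.2 to 69.1 in the other DN libraries, and Ndufb10, a subunit of respiratory complex I, at 79.2 CPM in the same library. Egr1 was at 41.3 CPM in DN replicate 3, above 31.6 to 33.2 in the other DN libraries. Spef1 was at 4.59 CPM in DN replicate 5.

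Among controls, Ipo13 was at 56.2 CPM in replicate 1, Stc1 at 3.66 in replicate 2, Gpr151, a habenula gene, at 2.06 in replicate 3, Pdgfra at 100.2 in replicate 4, Pvalb at 32.0 in replicate 5 and Supt3 at 6.27 CPM in replicate 6. List scores apart from their group were -0.0925 for the GABA system in control replicate 1, -0.235 for CA3 pyramidal cells in DN replicate 4, -0.0651 for astrocytes in control replicate 6, 0.131 for microglia in control replicate 5, and -0.109 and -0.102 for oligodendrocyte precursors in DN replicate 1 and control replicate 1.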

How the results depend on the processing

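Ptprf and St3gal3 were the 2 genes called in every alternative run and in each fit without 1 library. Counts at an unadjusted p under 0.05 varied: upper quartile scaling gave 246 lower genes, no filter gave 999 higher and 670 lower, and all 19 libraries in 1 fit gave 272 higher and 160 lower. Leaving out 1 library gave 324 to 632 higher and 248 to 603 lower genes, with 248 without control replicate 2. Fits without the 3 choroid-rich libraries, and without a block on replicates 1 to 5, were chosen after seeing the data. Replicate numbers did not pair the samples (correlations of -0.0517, 0.375, 0.203, 0.118 and -0.0280, and not every library correlated best with its own number). A replicate block gave 2 calls with 358 higher and 311 lower genes, against 378 and 315 in the same libraries without it.

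Over all alternatives, fold changes of named genes changed sign in 34 of 1736 values, in 13 genes, and list medians in 35 of 792 values, in 15 lists, namely choroid plexus, calnexin cycle, translocation, Nr4a with RXR, glutamate receptors, GABA system, cholesterol, granule cells, CA2, CA3, interneurons, newborn neurons, astrocytes, endothelium and blood. The log2 fold change of Nr4a1 was 0.026 with voom quality weights, 0.000889 with the replicate block, -0.22 to 0.050 with 1 library left out (highest without control replicate 2) and 0.22 without the 3 choroid-rich libraries. Npas4 ran from -0.32 to 0.19 with 1 library left out (highest without control replicate 2) and was 0.43 without the 3. Ttr was 0.29 with voom and, with quality weights, Ttr was 0.58, Clic6 0.11, F5 0.13, Folr1 0.021 and Col8a1 0.043. For choroid plexus genes the range with 1 library left out (lowest without DN replicate 2, highest without control replicate 1), then the value without the 3, were -4.18 to 0.40 and 2.62 for Ttr, -3.55 to 0.41 and 1.23 for Tmem72, -2.69 to 0.52 and 1.05 for Clic6, -2.68 to 0.65 and 1.05 for F5, -2.62 to 0.48 and 0.79 for Folr1, -2.51 to 0.44 and 0.63 for Col8a1, -2.25 to 0.23 and 0.45 for Prlr, -2.08 to 0.21 and 0.44 for 1500015O10Rik, -1.35 to 0.37 and 0.17 for Abca4, -1.15 to 0.45 and 0.31 for Col8a2 and -1.68 to 0.33 and 0.25 for Kcnj13. Of the 8 libraries left without the 3, DN replicate 1 had the highest Ttr, 142 CPM. The cause of these shifts was not tested.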

Other observations

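Genes of motile cilia, which ependymal and choroid plexus cells carry, were looked at after Dnah3, Tex9 and Spef1 appeared among the genes whose groups did not overlap, so the list was chosen after values were seen and its counts are a description. Of 45 such genes with a mean of at least 1 CPM, 36 were higher with DN and 9 lower, with a median log2 fold change of 0.09. At an unadjusted p under 0.05 there were 7 higher and 1 lower, where 2.02% and 1.81% of all genes were, and 0 were called by edgeR. Ttc16 was at a mean of 1.98 CPM with DN and 1.39 CPM in controls (log2 fold change 0.52, SE 0.155). Dnah10, an axonemal dynein, was at 0.39, Cfap46 at 0.36 and Cfap54 at 0.18, while Spef1 was at -0.26. Ependymal markers had a summed level of 28.8 to 49.4 CPM in the DN libraries and 28.5 to 49.9 CPM in the controls. By gene, 5 of the 6 ependymal markers were higher with DN (median 0.13, and 0.026 without DN replicate 2), and 6 of 6 without the 3 choroid-rich libraries (median 0.23). The part of ependymal RNA in the values of ciliary genes was not tested.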
